A study of Mus musculus with 6 samples.

Results

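The FRAS and FREM genes were followed here in whole lungs of mouse embryos, together with Grip1, which sorts their proteins, and Itga8, which codes for a receptor chain. The 6 genes Fras1, Frem1, Frem2, Frem3, Grip1 and Itga8 were found by symbol among 55335 rows of a read-count table, and all 6 were among the 17075 genes that passed a filter on low counts. The set was picked because Fras1 had one of the smallest p-values between the groups, rank 12 of 17075. The values of the 6 genes in that comparison are therefore given as a description, without a test. All lungs were taken at embryonic day 18 (E18), with 3 RNA-seq libraries in each group, labelled as biological replicates. Embryos labelled Gata4 CKO carried Prx1Cre with 1 floxed and 1 deleted Gata4 allele (Prx1Cre; Gata4 F/D), and control embryos carried Prx1Cre with 1 floxed and 1 intact allele (Prx1Cre; Gata4 F/+). Both groups thus carried the Cre transgene and a floxed allele. Prx1Cre acts in the lateral plate mesoderm, and the submitters describe diaphragm defects and small lungs in embryos labelled Gata4 CKO. Lung cells in which the transgene was not active kept the floxed allele as it was. By the labels, their other allele was deleted in embryos labelled Gata4 CKO and intact in controls. In whole-lung RNA, fewer cells of a type and less RNA per cell cannot be told apart.

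The basement membrane is a thin sheet of matrix under epithelia. In mouse embryos, the large proteins Fras1, Frem1 and Frem2 depend on each other to be deposited beneath it, where they hold an epithelium to the mesenchyme below. Loss of any of them gives mice with blistered embryonic skin, as in human Fraser syndrome and related disorders, and loss of Fras1 also distorts lung lobes. Frem1 mutations have been linked to diaphragmatic hernia in mice and humans. Grip1 carries several PDZ domains and brings Fras1 and Frem2 to the basal cell surface. Integrin alpha-8 pairs with integrin beta-1 to form a receptor for nephronectin and other matrix proteins, and is made by mesenchymal cells.

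The 3 sequences that follow are the 250 bases upstream of annotated starts of Frem1, Frem2 and Grip1, from RefSeq on GRCm38.p6, each read on the strand of its gene. They are shown because the targeted gene codes for a GATA-binding factor. GATA was searched on both strands (GATA or TATC), and its matches are in capitals. Of the 6 genes, 5 had windows in that set, 8 in all, and Fras1 had none. The Frem1 window was chr4:83052167-83052416, minus strand, the Frem2 window chr3:53657356-53657605, minus strand, and the Grip1 window chr10:119819139-119819388, plus strand.
Frem1: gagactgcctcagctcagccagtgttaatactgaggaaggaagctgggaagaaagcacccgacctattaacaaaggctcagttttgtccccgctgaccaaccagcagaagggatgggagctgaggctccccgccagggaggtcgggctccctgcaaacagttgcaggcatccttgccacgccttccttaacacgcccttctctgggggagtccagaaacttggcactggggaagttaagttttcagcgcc
Frem2: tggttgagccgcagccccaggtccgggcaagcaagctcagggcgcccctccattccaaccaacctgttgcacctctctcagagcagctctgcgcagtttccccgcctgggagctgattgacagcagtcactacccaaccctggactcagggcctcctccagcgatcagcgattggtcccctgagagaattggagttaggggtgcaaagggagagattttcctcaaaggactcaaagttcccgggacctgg
Grip1: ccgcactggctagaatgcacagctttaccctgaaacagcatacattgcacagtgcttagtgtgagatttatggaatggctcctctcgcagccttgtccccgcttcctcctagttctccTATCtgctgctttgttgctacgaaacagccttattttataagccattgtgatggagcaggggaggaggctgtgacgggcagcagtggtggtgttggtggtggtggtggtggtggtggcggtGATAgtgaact
Among the 8 windows, GATA was found in 2, both of Grip1, with 2 matches in the window shown and 1 in a window further downstream. The window shown belongs to a start inside the gene. The Grip1 window nearest the start of the gene, chr10:119453784-119454033, held 0 matches. None of the windows of Frem1, Frem2, Frem3 and Itga8 held these letters. The longer AGATAA (or TTATCT) was found in 0 of the 8. Of all 32851 windows of this length, 53.6% held GATA and 9.99% held AGATAA. These are letter matches in 1 stretch per start and do not show where a protein binds.

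The libraries held 20833883, 15156415 and 29749277 reads in the 3 libraries labelled Gata4 CKO, by replicate number, against 21295440, 20851989 and 30848948 reads in controls. Gata4 itself had 117, 76 and 97 reads in the libraries labelled Gata4 CKO, against 84, 63 and 90 reads in controls, so the targeted gene was not lower where its deletion was labelled. The count covers the whole gene and not the deleted part alone, and the groups are therefore called by their labels. Gata4 CKO 1 stood apart on the first principal component, which held 46.4% of the variance. It scored -71.32 there, while the other 5 libraries lay between -11.6 and 41.53. The fold changes of the 6 genes, and several list medians and correlations, are given with and without it. The columns also carry a number of unstated meaning, and 1 value of it, 4229, is shared by Gata4 CKO 1 and controls 1 and 2. Across all genes, edgeR called 0% of 17075 (0 genes, smallest adjusted p = 0.529), and 8.68% had an unadjusted p under 0.05. DESeq2 called 0.744% (127 genes) and limma-voom 0%. With quality weights added, limma-voom called 25.6% (4375 genes). Without Gata4 CKO 1, edgeR called 0.656% of 17520 genes. Of the 6 genes, edgeR called 0 with all libraries, DESeq2 called Fras1, edgeR without Gata4 CKO 1 called Fras1, and the weighted limma-voom fit called Fras1 and Frem2. With the column-label number as a term, edgeR called 5 of the 6, all but Frem3, where it called 42.8% of all genes, and that contrast rests on Gata4 CKO 1 against controls 1 and 2. Since the set was picked from this comparison, nothing is read from these counts.

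Levels were compared between genes as reads per kilobase of merged exons, scaled to library size (RPKM). In order of mean RPKM, Itga8 came first with 28.3 ± 6.92 in libraries labelled Gata4 CKO and 29.5 ± 3.61 in controls (SD, n = 3 each). Frem1 followed with 21.4 ± 6.82 RPKM in libraries labelled Gata4 CKO and 27.9 ± 1.42 RPKM in controls, and the libraries of these neighbours overlapped in both groups. Both genes were above 90% of the tested genes in controls (90.7% for Itga8 and 90.1% for Frem1). Frem2 had 6.43 ± 1.13 RPKM in libraries labelled Gata4 CKO and 9.05 ± 2.45 RPKM in controls. Fras1 had 5.92 ± 1.02 RPKM in libraries labelled Gata4 CKO and 11.1 ± 0.478 RPKM in controls. Frem2 and Fras1 were thus within each other's spread in the libraries labelled Gata4 CKO and overlapped in controls, where the highest Frem2 library had 11.1 RPKM and the lowest Fras1 library 10.7 RPKM. Grip1 was far lower, with 0.843 ± 0.285 RPKM in libraries labelled Gata4 CKO and 0.941 ± 0.107 RPKM in controls. Frem3 was close to the floor of the data, with 0.0979 ± 0.0093 RPKM in libraries labelled Gata4 CKO and 0.0903 ± 0.0309 RPKM in controls, above 0.856% of the tested genes. With the longest annotated transcript as the length instead of all merged exons, Frem1 had 30.8 RPKM in libraries labelled Gata4 CKO and 40.3 RPKM in controls, and it then stood above Itga8 in controls (37.4 RPKM).

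Fras1 codes for the founding protein of the complex, made by epithelial cells and anchored at their base. Its gene (ENSMUSG00000034687) is protein-coding and spans 96373955 to 96784728 of chromosome 5 on the plus strand of GRCm38. Fras1 had 84.6, 109.8 and 119.8 CPM, the reads scaled to library size without regard to length, in Gata4 CKO 1, 2 and 3, against 194, 205 and 189 CPM in controls 1, 2 and 3. Every library labelled Gata4 CKO lay well below every control, and the controls were close together, spanning 0.12 on the log2 scale, while the libraries labelled Gata4 CKO spanned 0.50. The raw reads behind these values were 1732, 1659 and 3629 in the libraries labelled Gata4 CKO and 4168, 4280 and 5761 in controls. The log2 fold change was -0.90 ± 0.17 (SE), a level of 0.534 times that of controls. It was -0.77 without Gata4 CKO 1, and from -1.01 to -0.87 when each of the other 5 libraries was left out in turn. Within the shared column-label number, Gata4 CKO 1 was at a log2 difference of -1.24 to controls 1 and 2.

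Frem1 codes for a secreted member of the family, which in mouse skin comes mostly from the mesenchyme. Its gene (ENSMUSG00000059049) is protein-coding and spans 82897920 to 83052339 of chromosome 4 on the minus strand. Frem1 had 192, 328 and 376 CPM in Gata4 CKO 1, 2 and 3, against 381, 413 and 377 CPM in controls 1, 2 and 3. The groups did not overlap, but Gata4 CKO 3 came within 1 CPM of control 3, and the gap lay mainly in Gata4 CKO 1. The log2 fold change was -0.39 ± 0.25 (SE), and it was -0.15 without Gata4 CKO 1. Fras1 and Frem1 were the 2 of the 6 genes whose groups did not overlap, both lower in libraries labelled Gata4 CKO, where 9.08% of all tested genes were lower in that way and 16.8% did not overlap in either direction.

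Frem2 codes for a membrane-anchored partner of Fras1. Its gene (ENSMUSG00000037016) is protein-coding and spans 53513938 to 53657355 of chromosome 3 on the minus strand. Frem2 had 68.8, 88.8 and 98.3 CPM in Gata4 CKO 1, 2 and 3, against 147, 129 and 83.8 CPM in controls 1, 2 and 3. The groups overlapped, since control 3 was lower than Gata4 CKO 2 and 3. The log2 fold change was -0.49 ± 0.24 (SE), with -0.35 without Gata4 CKO 1, -0.70 without control 3 and -0.32 without control 1. The spread was wider among controls (0.81 on the log2 scale) than among libraries labelled Gata4 CKO (0.51), the reverse of Fras1.

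Frem3, the least studied member of the family (ENSMUSG00000042353, protein-coding, chromosome 8, 80611080 to 80695356, plus strand), had 12, 9 and 21 reads in Gata4 CKO 1, 2 and 3, against 16, 13 and 11 reads in controls. At this depth no difference was detectable. Its log2 fold change was 0.15 ± 0.39 (SE), and it was 0.21 without Gata4 CKO 1 and -0.12 without control 3.

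The sorting protein and the receptor chain did not separate by group. Grip1 (ENSMUSG00000034813, protein-coding, chromosome 10, 119453830 to 120087261, plus strand) had 4.15, 7.94 and 8.29 CPM in Gata4 CKO 1, 2 and 3, against 7.04, 7.15 and 8.58 CPM in controls. Gata4 CKO 1 alone was lower than the other 5 libraries. The log2 fold change of Grip1 was -0.16 ± 0.28 (SE), and 0.10 without Gata4 CKO 1. Itga8 (ENSMUSG00000026768, protein-coding, chromosome 2, 12106632 to 12301922, minus strand) had 152, 251 and 223 CPM in Gata4 CKO 1, 2 and 3, against 206, 199 and 248 CPM in controls. Gata4 CKO 1 was again the lowest, and the other 2 libraries labelled Gata4 CKO lay above controls 1 and 2. The log2 fold change of Itga8 was -0.06 ± 0.21 (SE), and 0.12 without Gata4 CKO 1. The antisense gene E030013I19Rik overlaps 5.05% of the exon bases of Itga8 and Gm42604 overlaps 0.898% of those of Fras1, and the strand setting of the counts is not given in the sources used here.

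**Figure D1:**
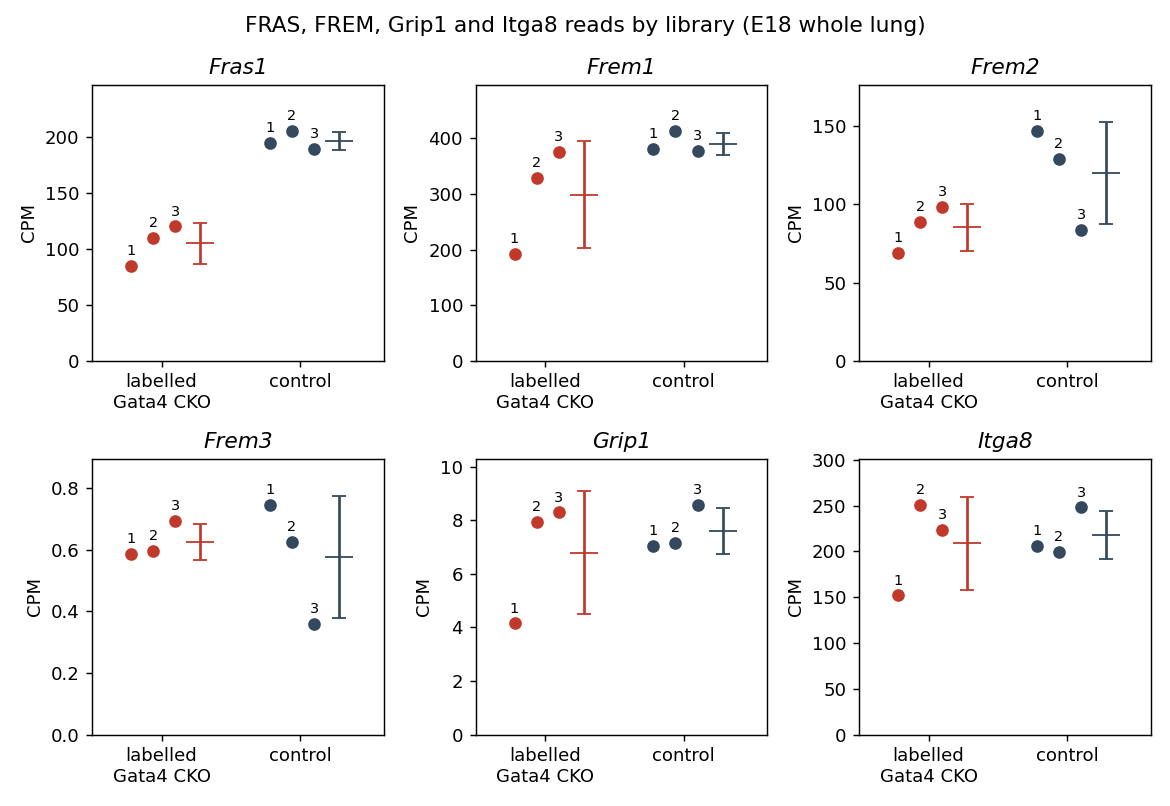
Each panel shows 1 gene, with CPM on a linear axis from 0 and the group on the x axis; points are single libraries, numbered by replicate, and bars are the mean ± SD (n = 3 each). For Fras1 the libraries labelled Gata4 CKO sit between 84.6 and 119.8 CPM, below all controls, while control 3 of Frem2 and most libraries of Grip1 and Itga8 lie within the range of the other group.

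The make-up of the family differed between libraries. Fras1 made up 20.1%, 17.0% and 16.4% of the summed RPKM of Fras1, Frem1, Frem2 and Frem3 in Gata4 CKO 1, 2 and 3, against 22.2%, 22.7% and 24.2% in controls. Frem1 made up 62.5 ± 4.11% in libraries labelled Gata4 CKO and 58.1 ± 3.07% in controls, and Frem2 19.4 ± 2.10% in libraries labelled Gata4 CKO and 18.6 ± 4.04% in controls (SD, n = 3 each). The share of Fras1 did not overlap between the groups, and those of Frem1 and Frem2 did. Fras1 was picked for its difference between the groups, and its share uses those values, so nothing more is read from it. The share of Frem3 was 0.386%, 0.256% and 0.264% in Gata4 CKO 1, 2 and 3, against 0.236%, 0.192% and 0.128% in controls, higher without overlap but resting on its few reads. The sum of the 4 genes was 33.8 ± 8.98 RPKM in libraries labelled Gata4 CKO and 48.1 ± 3.67 RPKM in controls.

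Ratios within a library show how the genes stood to each other. Those with Fras1 use the values by which it was picked and are given as a description. The ratio of Fras1 to Frem1 CPM was 0.440, 0.335 and 0.318 in Gata4 CKO 1, 2 and 3, against 0.510, 0.497 and 0.501 in controls. It was nearly constant in controls and lower in all 3 libraries labelled Gata4 CKO, least so in Gata4 CKO 1, where Frem1 was also low. The ratio of Fras1 to Frem2 was 1.23, 1.24 and 1.22 in Gata4 CKO 1, 2 and 3, against 1.32, 1.59 and 2.25 in controls. Here the libraries labelled Gata4 CKO were the nearly constant group. The ratio of Fras1 to Itga8 was 0.511 ± 0.0639 in libraries labelled Gata4 CKO and 0.913 ± 0.139 in controls, without overlap. The ratio of Grip1 to Itga8 was 0.0321 ± 0.00491 in libraries labelled Gata4 CKO and 0.0349 ± 0.000901 in controls, with overlap (SD, n = 3 each).

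Across the 6 libraries, Pearson's r of log2 CPM was 0.82 for Fras1 and Frem1, 0.75 for Fras1 and Frem2, and 0.73 for Frem1 and Frem2. Grip1 and Itga8 had the highest r of the 15 pairs, 0.95. With the mean of each group removed, r was 0.99 for Fras1 and Frem1 and 0.63 for Fras1 and Frem2, and Grip1 and Itga8 stayed at 0.95. Frem3, at its few reads, had r from -0.32 to 0.53 with the other genes, and 0.92 with Frem2 once group means were removed. These are descriptions over 6 libraries in 2 groups, and Gata4 CKO 1 was the lowest library for Fras1, Frem1, Frem2, Grip1 and Itga8. Over the 5 other libraries, r was 0.79 for Fras1 and Frem1, 0.56 for Fras1 and Frem2, and 0.82 for Grip1 and Itga8. Without Gata4 CKO 1, Itga8 had r of -0.56 with Fras1 and -0.78 with Frem1, against 0.39 and 0.72 with it. Grip1 likewise went from 0.56 to -0.48 with Fras1 and from 0.89 to -0.40 with Frem1. Frem2 went from 0.39 to -0.94 with Grip1 and from 0.18 to -0.92 with Itga8. The sign of all these pairs thus rests on that library.

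Genes with patterns most like each of 4 members, among 15327 with at least 1 CPM on average, were also looked up. Nearest to Fras1 were Creb3l2, a transcription factor of the secretory pathway (r = 0.998), the cytoskeletal Gas7 (0.995), Asap1, an Arf GTPase-activating protein (0.995), Dcun1d3 (0.994) and Nid1, which links laminin and collagen IV in the basement membrane (0.993). The log2 fold changes of these 5 were -0.60, -0.47, -0.53, -0.23 and -0.53. Their direction follows from choosing them by likeness to a gene picked for its group difference. Among those nearest to Frem1 were Hlf, Mpdz, Gpc6 and Galnt1, with r from 0.994 to 0.997. Mpdz codes for a scaffold with many PDZ domains, and Gpc6 for a glypican. Nearest to Frem2 were Nup107, Polq, Hyls1, Zmym3 and Cbx1 (r from 0.988 to 0.994), of which Nup107 codes for a nuclear pore protein and Polq for a DNA repair polymerase. Nearest to Itga8 were Sh3d19, the collagen Col25a1, Ccbe1, a secreted factor of lymphatic growth, Ikzf3 and Arl5a (r from 0.995 to 0.999). Of the 15327 genes, 162 (1.06%) had r over 0.95 with Fras1, 492 (3.21%) with Frem1, 81 (0.528%) with Frem2 and 398 (2.60%) with Itga8. With group means removed, the counts were 519 with Fras1, 853 with Frem1, 108 with Frem2 and 1055 with Itga8. These likenesses were computed with Gata4 CKO 1 included.

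The 18 listed partners of the complex included the other chain of the receptor, its ligands and proteins that bind the complex. None (0 of 18) passed in edgeR over all genes, 15 had negative log2 fold changes, where 48.5% of all tested genes were negative, and the median was -0.18, against 0.01 over all tested genes. Itgb1, the beta-1 chain that pairs with integrin alpha-8, had 1048 ± 186 CPM in libraries labelled Gata4 CKO and 1176 ± 28.1 CPM in controls (SD, n = 3 each). Its log2 fold change was -0.17 ± 0.18 (SE), and -0.03 without Gata4 CKO 1, the lowest library. Npnt, nephronectin, the main ligand of that receptor in the developing kidney, had 796 ± 153 CPM in libraries labelled Gata4 CKO and 945 ± 77.1 CPM in controls, with a log2 fold change of -0.25 ± 0.19 (SE), and -0.10 without Gata4 CKO 1. The other ligands Fn1 (fibronectin), Tnc (tenascin C) and Egfl6 stood at -0.39, -0.56 and 0.18 (log2 fold change). Spp1 (osteopontin) had at most 8.92 CPM in a library, with 5.53 ± 3.17 CPM in libraries labelled Gata4 CKO and 2.13 ± 1.53 CPM in controls (SD, n = 3 each).

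Tnc had 107, 101 and 135 CPM in Gata4 CKO 1, 2 and 3, against 166, 178 and 162 CPM in controls, without overlap. Vwa2, which codes for AMACO, a protein that binds Fras1, had 5.60 ± 1.67 CPM in libraries labelled Gata4 CKO and 5.95 ± 2.38 CPM in controls (SD, n = 3 each). The log2 fold change of Vwa2 was -0.08 ± 0.35 (SE). Hmcn1, a hemicentin, had 41.5, 99.1 and 109 CPM in Gata4 CKO 1, 2 and 3, against 92.0, 109 and 105 CPM in controls, and was thus low in Gata4 CKO 1 alone. Its log2 fold change was -0.30, and 0.03 without that library. Col7a1, the anchoring fibril collagen, stood at -0.54 and Grip2, the close relative of Grip1, at -0.49. Of the 18, 3 were lower without overlap, namely Tnc, Fn1 and Col7a1, and 0 were higher, against 9.08% and 7.69% of all tested genes. These 3 have merged exons of 7772, 11685 and 10287 bases. In the length bins that hold them, described below, 18.4% and 17% of genes were lower without overlap.

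**Figure D2:**
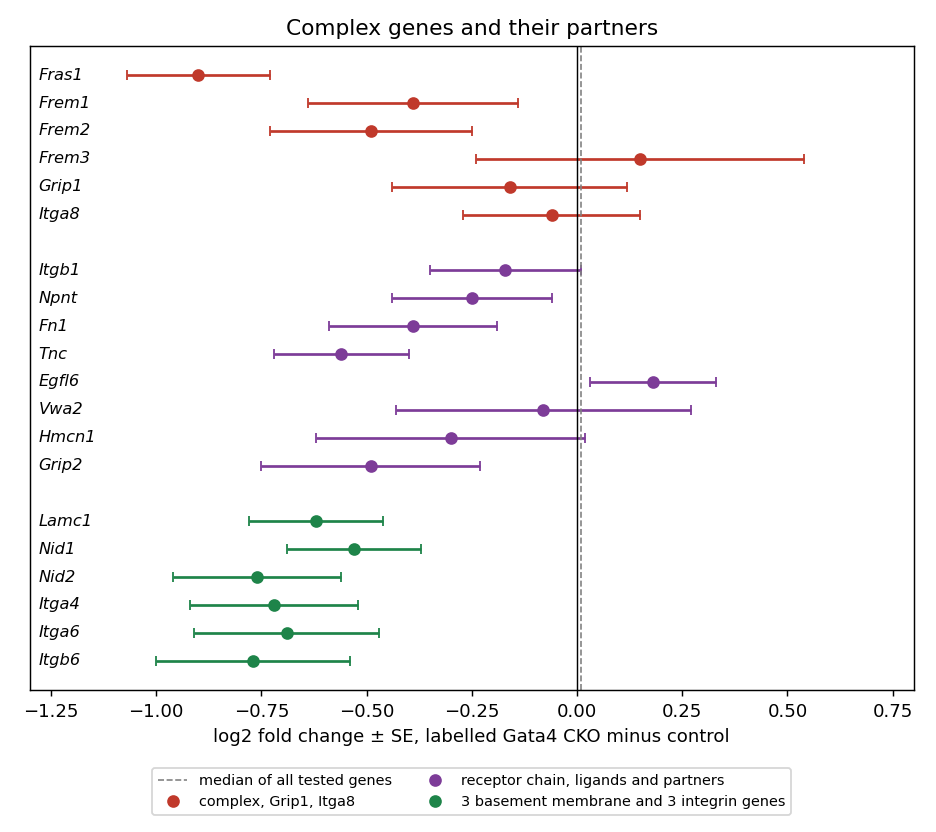
Log2 fold change of libraries labelled Gata4 CKO minus controls on the x axis, with bars of ± 1 SE (n = 3 libraries per group), for the 6 genes (red), 8 partners (purple) and the 3 basement membrane and 3 integrin genes with the smallest p (green). Fras1 lies at -0.90, Itga8 at -0.06 and Egfl6 at 0.18, and the dashed line is the median of all tested genes at 0.01.

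Other basement membrane genes were also mostly lower. Of 23 laminin, collagen IV, nidogen and proteoglycan genes, 0 passed in edgeR, 22 had negative log2 fold changes, with a median of -0.46, and 10 were lower without overlap, where 48.5% of all tested genes were negative and 9.08% lower in that way. The median was -0.43 without Gata4 CKO 1 and -0.27 without control 3. At an unadjusted p under 0.05 there were 7 of 23, all lower, where 4.91% of all tested genes were. These 23 genes have merged exons of 5174 (Nid2) to 16338 bases (Lama2). In the length bins over that range, described below, 11.1% to 18.4% of all tested genes were lower without overlap. The bin medians there were -0.05 to -0.10. Lamc1, the gamma-1 chain of most laminins, had 662, 785 and 762 CPM in Gata4 CKO 1, 2 and 3, against 1159, 1142 and 1089 CPM in controls, a log2 fold change of -0.62 ± 0.16 (SE). Every library labelled Gata4 CKO was below every control. The nidogens Nid1 and Nid2 stood at -0.53 ± 0.16 and -0.76 ± 0.20 (SE). Against Nid1 in the same library, Fras1 was at a ratio of 0.227, 0.247 and 0.254 in Gata4 CKO 1, 2 and 3, against 0.314, 0.312 and 0.325 in controls. This ratio again uses the values by which Fras1 was picked and is a description.

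Of 18 other integrin chains, 0 passed, 14 had negative log2 fold changes, the median was -0.22, and 6 were lower without overlap, against 48.5% and 9.08% of all tested genes. The median was -0.16 without Gata4 CKO 1 and -0.13 without control 1. These chains have merged exons of 2770 (Itgb7) to 18599 bases (Itga1). In the length bins over that range, 4.86% to 18.4% of all tested genes were lower without overlap. Itga4 had -0.72 ± 0.20, Itga6, a laminin receptor chain of epithelia, -0.69 ± 0.22, and Itgb6, an epithelial chain that activates TGF-beta, -0.77 ± 0.23 (log2 fold change, SE). Among 6 genes for other proteins with CSPG repeats or Calx-beta domains, the modules that the FRAS and FREM proteins carry, 0 passed, 3 were negative and the median was 0.09. Cspg4, a proteoglycan of pericytes, had -0.45 ± 0.28 (SE), Itgb4 0.30 ± 0.22 and Adgrv1 0.46 ± 0.44. Over these 4 lists together, DESeq2 called 1 of 65 genes, Lamc1, where it called 0.744% of all genes. Without Gata4 CKO 1, edgeR called 4 of 65, all lower, namely Lamc1, Itga4, Cspg4 and Col18a1, where it called 0.656% of all genes.

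Epithelial markers stood near or above 0, depending on Gata4 CKO 1. All markers of the epithelial list had reads, and Sftpc, the surfactant protein that marks alveolar type 2 cells of the lung, reached 12533 ± 3520 CPM in libraries labelled Gata4 CKO and 7431 ± 2006 CPM in controls (SD, n = 3 each). The 16 epithelial markers summed to between 2758 and 3719 CPM in libraries labelled Gata4 CKO and between 2666 and 3041 CPM in controls. Their median log2 fold change was 0.21, 13 were positive, 3 were higher without overlap (Cldn3, Cldn7 and Krt18), where 7.69% of all tested genes were, and 0 passed. The mean log2 CPM of the list was 7.21, 6.70 and 6.68 in Gata4 CKO 1, 2 and 3, against 6.77, 6.70 and 6.55 in controls, highest in Gata4 CKO 1. Without Gata4 CKO 1 the median was 0.01, with 9 of 16 positive. Relative to the mean log2 CPM of that list, Fras1 stood at -0.81, 0.08 and 0.23 in Gata4 CKO 1, 2 and 3, against 0.83, 0.98 and 1.01 in controls. This scale uses the same Fras1 values by which the gene was picked, and on it the groups did not overlap for Fras1. They did overlap for Frem2, with -1.11, -0.23 and -0.06 in Gata4 CKO 1, 2 and 3, against 0.42, 0.31 and -0.16 in controls.

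The 7 distal tip progenitor markers, which mark the growing ends of the epithelium, summed to between 480.3 and 506 CPM in libraries labelled Gata4 CKO and between 491 and 545 CPM in controls, with a median of -0.10. Among them Etv4 stood at -0.71, Shh at -0.42, Wnt7b at -0.30, Etv5 at -0.10, Bmp4 at -0.05, Sox9 at 0.07 and Id2 at 0.09, and the median was -0.23 without Gata4 CKO 1. The 9 alveolar type 2 markers had a median of 0.61 and the 8 alveolar type 1 markers -0.11. The 10 mesothelial markers, of the lung surface, summed to between 757 and 989 CPM in libraries labelled Gata4 CKO and between 813 and 865 CPM in controls, with a median of 0.06. Msln stood at -0.24, Muc16 at 0.78 and Rspo1 at 0.60, the last higher without overlap. For the 14 fibroblast markers the median was -0.03, and their sums were between 7447 and 9169 CPM in libraries labelled Gata4 CKO and between 8623 and 8894 CPM in controls. Smooth muscle and myofibroblast markers had a median of -0.34, pericyte markers -0.03, endothelial markers -0.04, immune markers 0.63 and cardiac and skeletal muscle markers 0.24 (9 of 12 tested). Of 6 liver markers, 3 were tested, with a median of -1.12, and of 1.18 without control 1. Their mean log2 CPM was highest in control 1, at 2.57, followed by Gata4 CKO 1 at 0.89. Without Gata4 CKO 1 the median was 0.21 for mesothelial, -0.10 for fibroblast, -0.51 for smooth muscle and myofibroblast, -0.18 for pericyte, -0.19 for endothelial, 0.41 for cardiac and skeletal muscle and -1.65 for liver markers. The 10 cycling markers had a median of -1.13, and of -1.41 without Gata4 CKO 1, and summed to between 220.4 and 391 CPM in libraries labelled Gata4 CKO and between 399.9 and 889.5 CPM in controls. Their mean log2 CPM was 5.01, 3.85 and 4.62 in Gata4 CKO 1, 2 and 3, against 5.94, 6.03 and 4.86 in controls. That of the type 2 markers was 10.30, 10.46 and 10.21 in Gata4 CKO 1, 2 and 3, against 9.32, 9.28 and 10.29 in controls, and that of the immune markers 4.66, 4.84 and 4.74 in Gata4 CKO 1, 2 and 3, against 4.08, 3.79 and 4.60 in controls. In all 3 lists control 3 lay nearer to the libraries labelled Gata4 CKO than controls 1 and 2 did. Relative to the cycling markers, Fras1 stood at 1.40, 2.93 and 2.29 in Gata4 CKO 1, 2 and 3, against 1.67 and 1.65 in controls 1 and 2, with control 3 between Gata4 CKO 3 and 2. The means were 2.20 in libraries labelled Gata4 CKO and 2.00 in controls, and the groups overlapped. They overlapped for Fras1 relative to the liver markers as well. Of 14 lists compared in this way, the marker lists and the basement membrane list, Fras1 was lower without overlap relative to 12. All of these comparisons use the Fras1 values by which the set was picked, so nothing is read from this count. No marker list had a gene past the threshold in edgeR. The part of these cell classes in the values of Fras1 and Frem2 was not tested.

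Gene length moved with the fold changes over the whole table. In the shortest of 10 bins of merged exon length, up to 1193 bases, the median log2 fold change was 0.20, and in the longest bin, from 9438 bases, it was -0.09. The share of genes lower without overlap was 2.69% in the shortest bin and 17.0% in the longest. Fras1 with 17709 bases, Frem1 with 13978 and Frem2 with 13255 all lie in the longest bin, Grip1 and Itga8 in the bin before it, with a median of -0.10, and Frem3 in the one before that. With a trend of length and GC content removed from each library, the log2 fold change of Fras1 was -0.82, that of Frem1 -0.29 and that of Frem2 -0.39. Itga8 stood at 0.03, in place of -0.06.

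**Figure D3:**
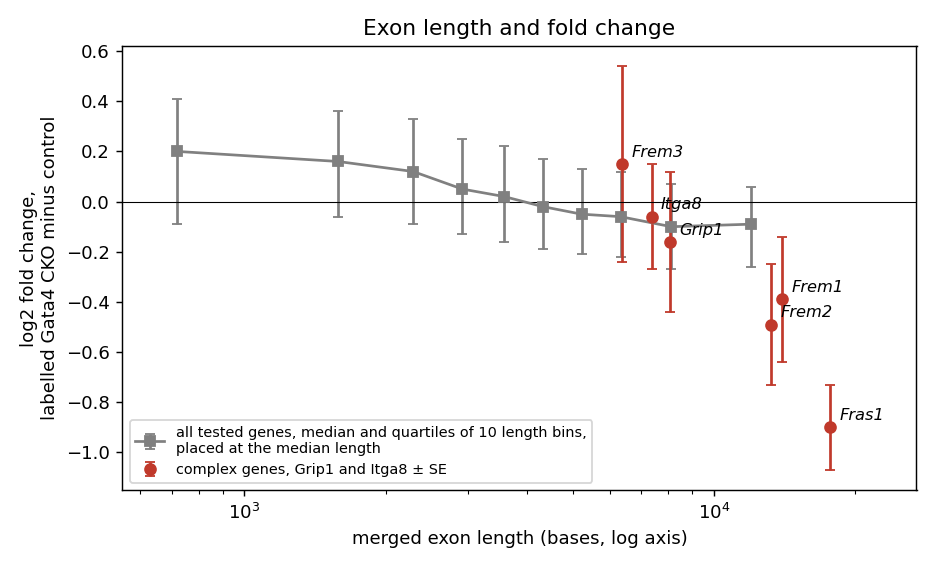
Log2 fold change of libraries labelled Gata4 CKO minus controls on the y axis against merged exon length in bases on a log x axis. Grey squares are the medians of 10 length bins of all tested genes with quartiles as bars, and red points are the 6 genes ± SE. Fras1 at -0.90, Frem2 at -0.49 and Frem1 at -0.39 lie below the lower quartile of their bin, -0.26. Itga8 and Grip1 lie within their bin's quartiles, and Frem3 at 0.15 lies above the upper quartile of its bin, 0.12.

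Fras1 had the lowest value of the 3 larger family members under every setting tried. The set was picked for Fras1, and all settings reuse the same libraries, so this order is a description. Under 17 alternatives, the log2 fold change of Fras1 lay between -1.24 and -0.76, and that of Frem1 between -1.05 and -0.12. Grip1 was positive under 2 of the 17 and Itga8 under 4, among them the fits without Gata4 CKO 1 and with quality weights.

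**Figure D4:**
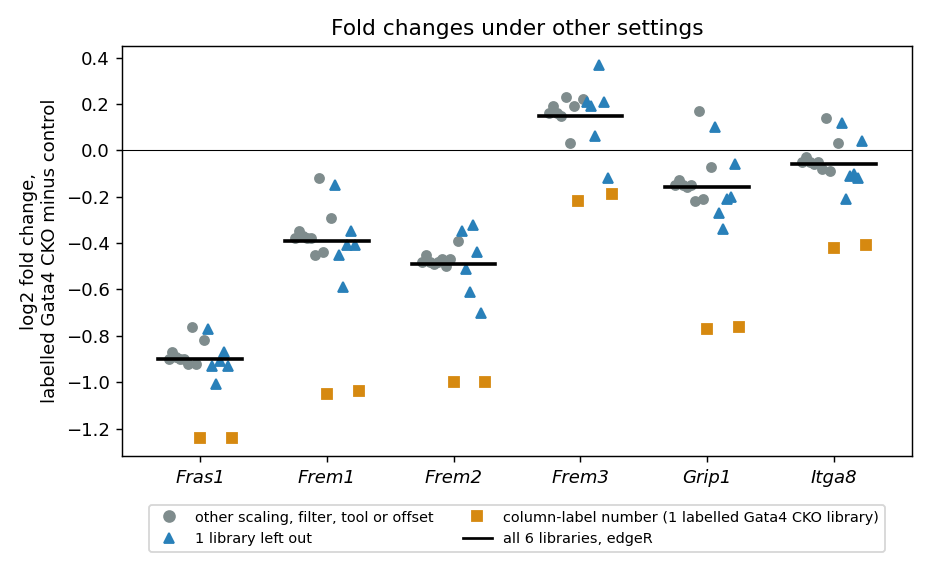
Log2 fold change of each of the 6 genes on the y axis in all 6 libraries with edgeR (black line) and under the other settings: another scaling, filter, tool or offset (circles), 1 library left out (triangles), and values that rest on Gata4 CKO 1 against controls 1 and 2 (squares). Fras1 stays between -1.24 and -0.76 and Frem2 at or below -0.32, while Grip1 and Itga8 lie on both sides of 0.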

How the data were processed

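The authors deposited raw counts of reads for each Ensembl gene, as whole numbers, per the file headers. For the steps before that, the submitters' processing notes give STAR (2.7.10a), featureCounts (2.0.1), DESeq2 (1.36.0), GRCm38 and mm10, without saying what each was used for. RNA came from whole lungs and went into a stranded mRNA library kit, per the labels' protocols. Lengths and positions come from GENCODE mouse M21 (GRCm38), which covered 99.9% of tested genes.

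Low counts were removed with filterByExpr (minimum 10, total minimum 15), and the other genes were tested, after TMM scaling, by the two-sided quasi-likelihood test of edgeR 4.0.16 (robust) in R 4.3.3, with Benjamini-Hochberg adjustment over 17075 genes and a threshold of 0.05. The pipeline was tested on simulated data. CPM used TMM-scaled library sizes, and log2 CPM a prior count of 2. Alternatives used DESeq2 1.42.0 and limma 3.58.1. Replicates are biological replicates by label, and SD covers the spread between the libraries of a group. SE was derived from the log2 fold change and the statistic of the edgeR test, which shares information on spread across genes. The genes and the 17 lists were chosen with earlier results of these data known. By rule the text names the 6 genes, 7 fixed partners, Gata4, up to 3 genes per list with the smallest p, and the 5 genes most like Fras1, Frem1, Frem2 and Itga8. Of these, 1 gene is not reported here.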

Additional observations from a re-analysis of the deposited data

How the results depend on the processing

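The count of genes past the threshold was 0 in edgeR with all libraries and stayed 0 under RLE or upper-quartile scaling, both other filters, limma-voom and removal of the length and GC trend. It was 127 with DESeq2, 4375 with quality weights and 7308 with the column-label number as a term, a fit whose contrast rests on Gata4 CKO 1 against controls 1 and 2. Leaving out 1 library gave 0 to 115 genes, with 115 without Gata4 CKO 1. The 4 lists of partners and basement membrane genes held 65 tested genes. Of these 65, DESeq2 called 1, where it called 0.744% of all tested genes. Quality weights gave 28 of 65, against 25.6% of all tested genes. The column-label number gave 32 of 65, against 42.8% of all tested genes. Leaving out 1 library gave 0 to 4 of 65. The lists were not tested against all genes in these fits. The cause of the differences between settings was not tested. The replicate block gave 0 genes and 0 list genes, and a log2 fold change of -0.92 for Fras1. Same-numbered libraries correlated at 0.111, -0.301 and 0.119 in their deviations from the group means, so the numbers were not taken as pairs. The list medians with 1 library left out, and the correlations and list genes without Gata4 CKO 1, were added after seeing the data. Fras1, Frem1 and Frem2 were negative under all 17 alternatives run, Grip1 under 15 of 17 and Itga8 under 13 of 17. Frem3 was positive under 13 of 16. Frem3 rests on 9 to 21 reads per library and its values are limited by depth.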
